A study of Drosophila melanogaster with 6 samples.

Results

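The genes described here are nuclear genes of respiratory complex I, taken as the 33 rows of the deposited gene table, out of 8470, whose gene name starts with ND-. All 33 had at least 10 counts in every library and all 33 entered the test, among 9080 genes tested. Complex I (NADH:ubiquinone oxidoreductase) takes electrons from NADH, passes them to ubiquinone and pumps protons across the inner mitochondrial membrane. It is the largest complex of the respiratory chain. Its hydrophilic peripheral arm holds the flavin and the iron-sulphur clusters, and its membrane arm, whose central subunits are encoded in mitochondrial DNA, holds the proton pumps. The remaining subunits are encoded in the nucleus, and in Drosophila most of these genes carry the prefix ND- followed by the name of the matching bovine subunit. In the fly midgut, intestinal stem cells (ISCs) divide and give rise to enteroendocrine cells and, by way of enteroblasts, to enterocytes.

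The study compared 3 samples with NF-YA RNAi and 3 control samples of ISCs from female flies. NF-YA is the DNA-binding subunit of the trimeric transcription factor NF-Y. Both groups carried ISC-Gal4, which joins temperature-inducible esg-Gal4 to UAS-2xYFP and, to silence Gal4 in enteroblasts, to Su(H)GBE-Gal80. The NF-YA RNAi flies also carried an NF-YA RNAi transgene, whereas the control flies were crosses to the Oregon R strain, so that the insertion and its genetic background came together with the knockdown. Holidic diet is a food of defined chemical composition. Before dissection the flies spent 3 days on it while RNAi was induced, as the methods state. By the labels these 3 days were preceded by 3 days of induction alone and, earlier still, by 3 days in the cold with RNAi off. The study's text gives only 3 days of induction, so the sources differ on its length. YFP-positive cells were sorted from dissociated midguts and their mRNA was sequenced as paired reads of 75 bases. The NF-YA RNAi libraries are numbered 2, 4 and 5 and the control libraries 1, 2 and 3, and values are given in these orders throughout. The samples are described as independent, but the number of flies per sample is not given in the sources used here.

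The libraries held between 77092609 and 122269943 estimated counts. Nf-YA, the targeted gene, stood at 3.58, 4.92 and 4.30 CPM (counts per library of a common size, after TMM normalization) in the NF-YA RNAi libraries, against 16.0, 19.7 and 23.6 CPM in the control libraries (log2 fold change -2.21 ± 0.20 (SE), adjusted p = 0.000203, edgeR). The progenitor marker esg had 197, 173 and 175 CPM in NF-YA RNAi and 283, 309 and 245 CPM in control. Of 7 progenitor markers, 6 were lower in NF-YA RNAi and 2 of these, esg and mira, were called downregulated. Of all genes tested, 8.02% were called downregulated. Markers of other cells were also present. The summed level of 12 enterocyte markers ranged from 519.5 to 1476 CPM in NF-YA RNAi and from 1915 to 4902 CPM in control, with 7 of the 12 called downregulated. While 11 of the 12 were lower in NF-YA RNAi, 1, nub, was higher. It had 13.4, 10.7 and 8.11 CPM in NF-YA RNAi, against 6.87, 7.53 and 7.80 CPM in control. Its groups did not overlap, but it was not called (log2 fold change 0.54, adjusted p = 0.107, edgeR). The 10 enteroendocrine markers summed to between 522 and 1209 CPM in NF-YA RNAi and to between 1842 and 2363 CPM in control. All 10 were lower in NF-YA RNAi and 6 of the 10 were called downregulated. The 10 visceral muscle markers summed to between 8.31 and 13.6 CPM in NF-YA RNAi and to between 10.8 and 48.1 CPM in control. The 5 neuronal markers summed to between 85.3 and 101 CPM in NF-YA RNAi and to between 106 and 113 CPM in control. The 4 hemocyte markers summed to at most 2.7 CPM in NF-YA RNAi and 13.5 CPM in control with He at 0, and the 4 fat body markers to at most 1.1 CPM in NF-YA RNAi and 1.34 CPM in control with Lsp2 and Cyp4g1 at 0. Of the muscle markers 1, sls, and of the hemocyte markers 1, Ppn, were called downregulated, with 0 of the neuronal and 0 of the fat body markers. Control library 1 had the highest enterocyte and muscle sums. Whether these other cells take part in the differences between the groups was not tested. In such bulk libraries, fewer cells of a type and less RNA per cell cannot be told apart.

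The levels of the ND- genes spanned a wide range. Levels of different genes are compared as TPM, which corrects for transcript length. The highest was ND-B12 (NDUFB3 in mammals), an accessory subunit of the distal membrane arm, with 1271 ± 137 TPM in NF-YA RNAi and 913 ± 147 TPM in control (SD, n = 3 each). The next was ND-B15 (NDUFB4), of the same arm, with 431 ± 4.53 TPM in NF-YA RNAi and 331 ± 32.1 TPM in control. Thus ND-B12 lay above all other ND- genes by more than the spread of either group. The mean over all 6 libraries lay between 100 and 300 TPM for 21 genes, above 300 TPM for 3 and below 100 TPM for 9, with a median of 196 TPM. ND-MWFE and ND-AGGG were the lowest. ND-MWFE (NDUFA1), a small membrane subunit, had 36.0 ± 3.31 TPM in NF-YA RNAi and 27.9 ± 3.42 TPM in control. ND-AGGG (NDUFB2) had 37.5 ± 11.05 TPM in NF-YA RNAi and 17.4 ± 3.80 TPM in control. It was the lowest of all ND- genes in control, and these 2 neighbours in the order did not differ beyond their spread within NF-YA RNAi. The ratio of the highest to the lowest 6-library mean was 39.9. Many neighbours in the middle of the order overlapped within their SD, and the order in NF-YA RNAi followed that in control (Spearman's rho = 0.968 across the 33 genes, a description over genes that share the same libraries).

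**Figure D1:**
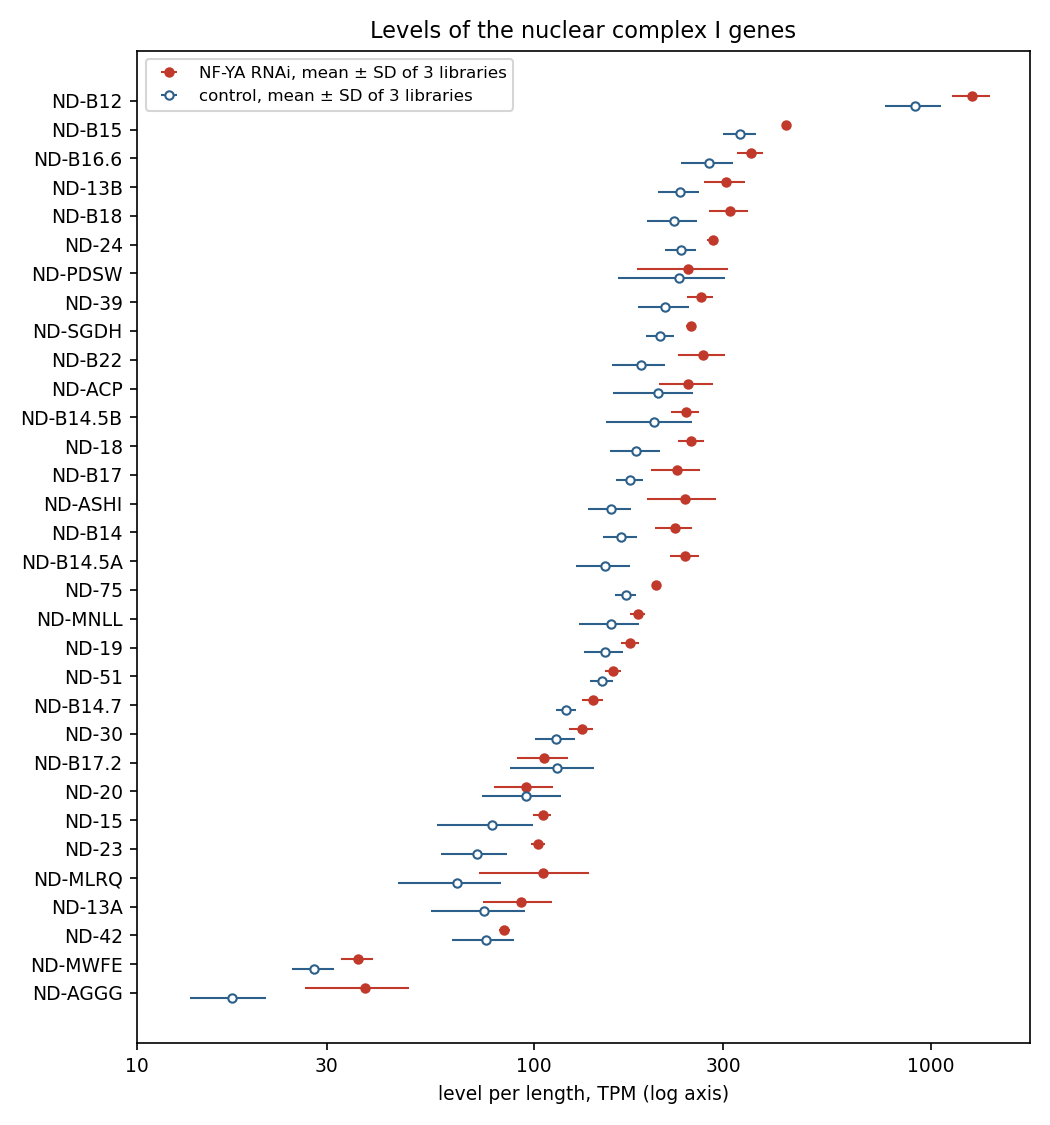
Levels of 32 ND- genes per length, in TPM on a log axis, as mean ± SD of 3 NF-YA RNAi libraries (filled red) and 3 control libraries (open blue), in the order of the mean over all 6. ND-B12 stood highest with 1271 TPM in NF-YA RNAi and 913 TPM in control, and ND-AGGG stood lowest in control with 17.4 TPM.

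Most ND- genes were slightly higher in NF-YA RNAi, and few passed the test one by one. The log2 fold change was above 0 for 30 of the 33 genes, whereas 48.3% of all genes tested had one above 0. The median over the 33 genes was 0.22, against -0.018 over all 9080 genes tested. At an adjusted p under 0.05 in edgeR's quasi-likelihood test, 4 ND- genes were called upregulated, ND-AGGG, ND-B14.5A, ND-ASHI and ND-23. These are 12.1% of the list, beside 6.19% of all genes tested. Among the 4869 genes with a mean of 10 CPM or more, 9.63% were called upregulated and the median log2 fold change was 0.0052. No ND- gene was called downregulated (0 of 33 in edgeR, 0 at an unadjusted p under 0.05 and 0 in DESeq2), beside 8.02% of all genes tested. By unadjusted p under 0.05, 12 ND- genes were higher, 36.4% of the list beside 13.4% of all genes. Among the genes with a mean of 10 CPM or more this share was 19.4%. For 9 ND- genes (ND-75, ND-23, ND-18, ND-B14, ND-B14.5A, ND-B14.7, ND-B15, ND-B18 and ND-AGGG) every NF-YA RNAi library lay above every control library, 27.3% of the list beside 16.5% of all genes tested. The share was 21.75% among the genes with a mean of 10 CPM or more, nearer to that of the list. For 0 ND- genes did every NF-YA RNAi library lie below every control library, beside 19.4% of all genes tested. The number of calls depended on the tool and on single libraries. DESeq2 called 11 ND- genes upregulated, beside 9.62% of its genes. They were these 4 and ND-18, ND-B14, ND-B12, ND-B15, ND-B17, ND-B18 and ND-B22. In edgeR 0 were called when NF-YA RNAi library 4, NF-YA RNAi library 5 or control library 1 was left out. The share of all genes tested called upregulated also fell in these fits, to 2.05%, 1.99% and 2.46%, from 6.19%.

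**Figure D2:**
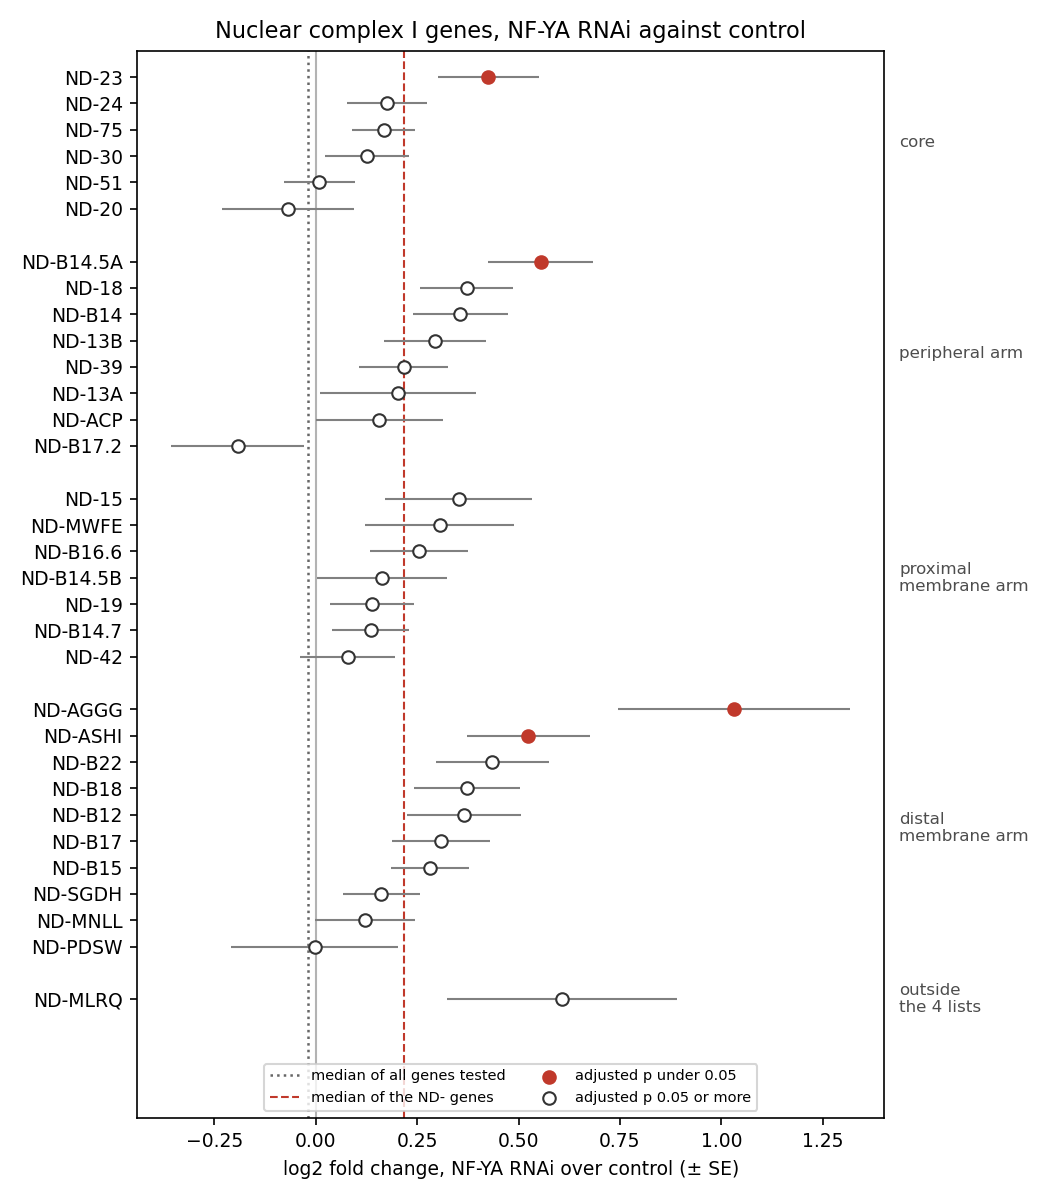
Log2 fold change of NF-YA RNAi over control with its SE for 32 ND- genes, grouped by their place in the complex. Filled red points are the 4 genes with an adjusted p under 0.05, the dashed line is the median of all 33 ND- genes (0.22) and the dotted line that of all genes tested (-0.018).

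The 7 core subunits are those shared with bacterial complex I that carry the electron path. Of these, 1 was called upregulated, 14.3% of the list beside 6.19% of all genes tested. ND-23 (NDUFS8), a ferredoxin-like iron-sulphur protein (FBgn0017567, on 3R, 15836048 to 15837117 in BDGP6), had 71.9, 68.7 and 74.7 CPM in NF-YA RNAi, against 44.8, 61.3 and 54.3 CPM in control. The groups did not overlap, and control library 1 was the lowest of all (log2 fold change 0.43 ± 0.12 (SE), edgeR adjusted p = 0.0488). ND-75 (NDUFS1), the large iron-sulphur subunit, had 552, 557 and 564 CPM in NF-YA RNAi and 481, 503 and 505 CPM in control. It had the smallest SE of the core genes and all NF-YA RNAi libraries above all control libraries, but the difference did not pass the test (log2 fold change 0.17 ± 0.078, adjusted p = 0.189, edgeR).

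The other core genes did not pass the test either. ND-24 (NDUFV2), an iron-sulphur protein next to the flavin, had 220.3, 235 and 225 CPM in NF-YA RNAi and 190.4, 189 and 223 CPM in control (log2 fold change 0.18 ± 0.098). ND-30 (NDUFS3), of the quinone module, had 125.5, 112.6 and 111.5 CPM in NF-YA RNAi and 95.7, 110.8 and 113.8 CPM in control (0.13 ± 0.10). In both genes control library 3 reached the level of the NF-YA RNAi libraries. ND-51 (NDUFV1), which binds NADH and the flavin, had 259, 245 and 237 CPM in NF-YA RNAi and 235, 249 and 251 CPM in control (log2 fold change 0.0091 ± 0.087). ND-20 (NDUFS7), which carries the last cluster before ubiquinone, had 94.4, 66.9 and 84.6 CPM in NF-YA RNAi and 69.9, 102 and 85.7 CPM in control (-0.068 ± 0.16). The libraries of the 2 groups interleaved in these 2 genes. The median log2 fold change of the core list was 0.13.

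Of the 8 accessory subunits of the peripheral arm, 7 had a positive log2 fold change and 1 was called, with a median of 0.26. These are 87.5% and 12.5% of the list, beside 48.3% and 6.19% of all genes tested. ND-B14.5A (NDUFA7; FBgn0025839, on X, 2172526 to 2173432) had 76.2, 91.7 and 85.6 CPM in NF-YA RNAi, against 51.9, 52.6 and 68.0 CPM in control. Its groups did not overlap, and it had the smallest adjusted p of the ND- genes (log2 fold change 0.55 ± 0.13, adjusted p = 0.0226, edgeR). ND-18 (NDUFS4, whose loss in humans causes Leigh syndrome) had a log2 fold change of 0.37 and an adjusted p of 0.0601 in edgeR. The values were 0.36 for ND-B14 (NDUFA6), an LYR-motif protein that holds an acyl carrier protein in the complex, and 0.29 for ND-13B (NDUFA5). ND-39 (NDUFA9), a dehydrogenase-like protein near the quinone site, stood at 0.22, ND-13A (NDUFS6), which binds zinc, at 0.20, and ND-ACP, the acyl carrier protein that also serves mitochondrial fatty acid synthesis, at 0.16. None of these passed the test in edgeR, while ND-18 (adjusted p = 0.00906) and ND-B14 (adjusted p = 0.0229) did in DESeq2. ND-B17.2 (NDUFA12) had the lowest fold change of all 33. It had 57.3, 47.8 and 43.4 CPM in NF-YA RNAi and 44.1, 67.3 and 58.3 CPM in control (log2 fold change -0.19 ± 0.16, adjusted p = 0.497, edgeR). The groups overlapped, with control library 1 near the lowest NF-YA RNAi library.

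All 7 accessory subunits of the proximal membrane arm were on the positive side, beside 48.3% of all genes tested, with a median of 0.16. Of these, 0 passed the test (0 at an unadjusted p under 0.05 in edgeR, 0 in DESeq2), beside 6.19% of all genes tested called upregulated. ND-15 (NDUFS5) was the highest at 0.35 and ND-42 (NDUFA10), a nucleoside-kinase-like protein, the lowest at 0.079. Between them lay ND-MWFE at 0.31, ND-B16.6 (NDUFA13, also known as GRIM-19) at 0.26, ND-B14.5B (NDUFC2) at 0.16, ND-19 (NDUFA8) at 0.14 and ND-B14.7 (NDUFA11) at 0.14. The locus of ND-15 spans or touches 11 other protein-coding genes. ND-MWFE shares 476 bases with TppII on the other strand and 128 bases with Nrk on the same strand. These overlaps are of whole gene spans with introns, whereas the counts are estimates for transcripts, and the main transcript of ND-15 has 486 bases. Strand use in the counting is not given in the sources used here, so reads may be shared where transcripts overlap.

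The 10 accessory subunits of the distal membrane arm held 2 of the 4 called genes and 7 of the 12 with an unadjusted p under 0.05 (20% and 70% of the 10, beside 6.19% and 13.4% of all genes tested), and their median was 0.34. ND-ASHI (NDUFB8; FBgn0029888, on X, 6677262 to 6679118) had 107.6, 141 and 161 CPM in NF-YA RNAi, against 86.2, 90.6 and 108.3 CPM in control. NF-YA RNAi library 2 lay just below control library 3, so the groups overlapped (log2 fold change 0.52 ± 0.15, adjusted p = 0.0485, edgeR). ND-ASHI shares 695 bases with Fum1 on the other strand.

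ND-AGGG (FBgn0058002, on 3L, 24976254 to 24977118) had the highest fold change of the 33. It had 6.78, 13.2 and 11.7 CPM in NF-YA RNAi, against 5.89, 3.59 and 5.98 CPM in control. The groups did not overlap, but NF-YA RNAi library 2 was close to the control libraries (log2 fold change 1.03 ± 0.29, adjusted p = 0.0413, edgeR). RefSeq lists a related gene, CG40472 (synonym ND-AGGGL), on the same arm, which had 1.63, 1.71 and 5.01 CPM in NF-YA RNAi and 2.33, 2.92 and 4.63 CPM in control. When both were summed to 1 feature, a step chosen after the values were seen, the log2 fold change was 0.66 ± 0.27 and no longer passed the test (adjusted p = 0.139, edgeR). How reads were divided between these related genes was not tested.

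The other distal genes were not called in edgeR. ND-B22 (NDUFB9), another LYR-motif protein, stood at 0.44, ND-B18 (NDUFB7) at 0.37, ND-B12 at 0.36, ND-B17 (NDUFB6) at 0.31, ND-B15 at 0.28 and ND-SGDH (NDUFB5) at 0.16 on the log2 scale. ND-PDSW (NDUFB10) was nearest to 0. It had 163, 111 and 107 CPM in NF-YA RNAi and 101, 164 and 116 CPM in control (log2 fold change -0.0024 ± 0.21, adjusted p = 0.996, edgeR). A single library in each group was high, NF-YA RNAi library 2 and control library 2. ND-MNLL (NDUFB1) had a log2 fold change of 0.12 ± 0.12. Its span is shared over 746 bases with CG45089 on the same strand, and the estimates for the 487-base transcripts of both genes were nearly equal in each library (for example 6387 and 6440.5 counts in NF-YA RNAi library 4). Summed to 1 feature, likewise after seeing the values, the 2 genes had a log2 fold change of 0.099.

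ND-MLRQ (NDUFA4), a small protein that in mammals is now assigned to cytochrome c oxidase, was in none of the 4 lists. Its fold change was second to that of ND-AGGG. It had 13.9, 25.9 and 25.6 CPM in NF-YA RNAi and 17.8, 9.25 and 15.8 CPM in control. NF-YA RNAi library 2 lay below 2 of the control libraries and the difference did not pass the test (log2 fold change 0.61 ± 0.28, adjusted p = 0.189, edgeR).

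Related copies of the ND- genes had few or no counts. ND-20L, ND-24L, ND-51L2 and ND-B14.5AL were listed at 0 in all 6 libraries, and ND-51L1 had 16, 0 and 0 counts in NF-YA RNAi and 44, 10 and 26 counts in control. A count of 3 corresponds to between 0.0245 and 0.0389 CPM, for counting error only. None of these 5 copies was in the deposited gene table, whereas the genes they are named after were among the 33. ND-B8 (NDUFA2), a subunit of the peripheral arm with 1 annotated transcript, was also listed at 0 in every library and not in the gene table. Whether the zeros of ND-B8 and of the copies are absence or failed estimates was not tested. No level was read from any of these zeros.

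The 33 genes also differed between libraries within each group. Relative to the mean of the control libraries, the median log2 ratio of the ND- genes was 0.17, 0.27 and 0.23 in the NF-YA RNAi libraries and -0.16, 0.019 and 0.11 in the control libraries. Thus the lowest NF-YA RNAi library lay above the highest control library. Over all genes tested, the same median stayed between -0.050 and -0.0026 in all 6 libraries. The summed level of the 33 genes was 4257, 4414 and 4412 CPM in NF-YA RNAi and 3385, 3819 and 4028 CPM in control. Control library 1, which had the highest enterocyte marker sum, was the lowest. In this library 2 of the 33 genes stood above the control mean, against 18 in control library 2 and 30 in control library 3. The number was 32, 27 and 28 in the NF-YA RNAi libraries, so control library 3 exceeded NF-YA RNAi libraries 4 and 5. Without control library 1 the median log2 fold change was 0.14, against 0.22 with it. The part that other cell types take in this was not tested.

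**Figure D3:**
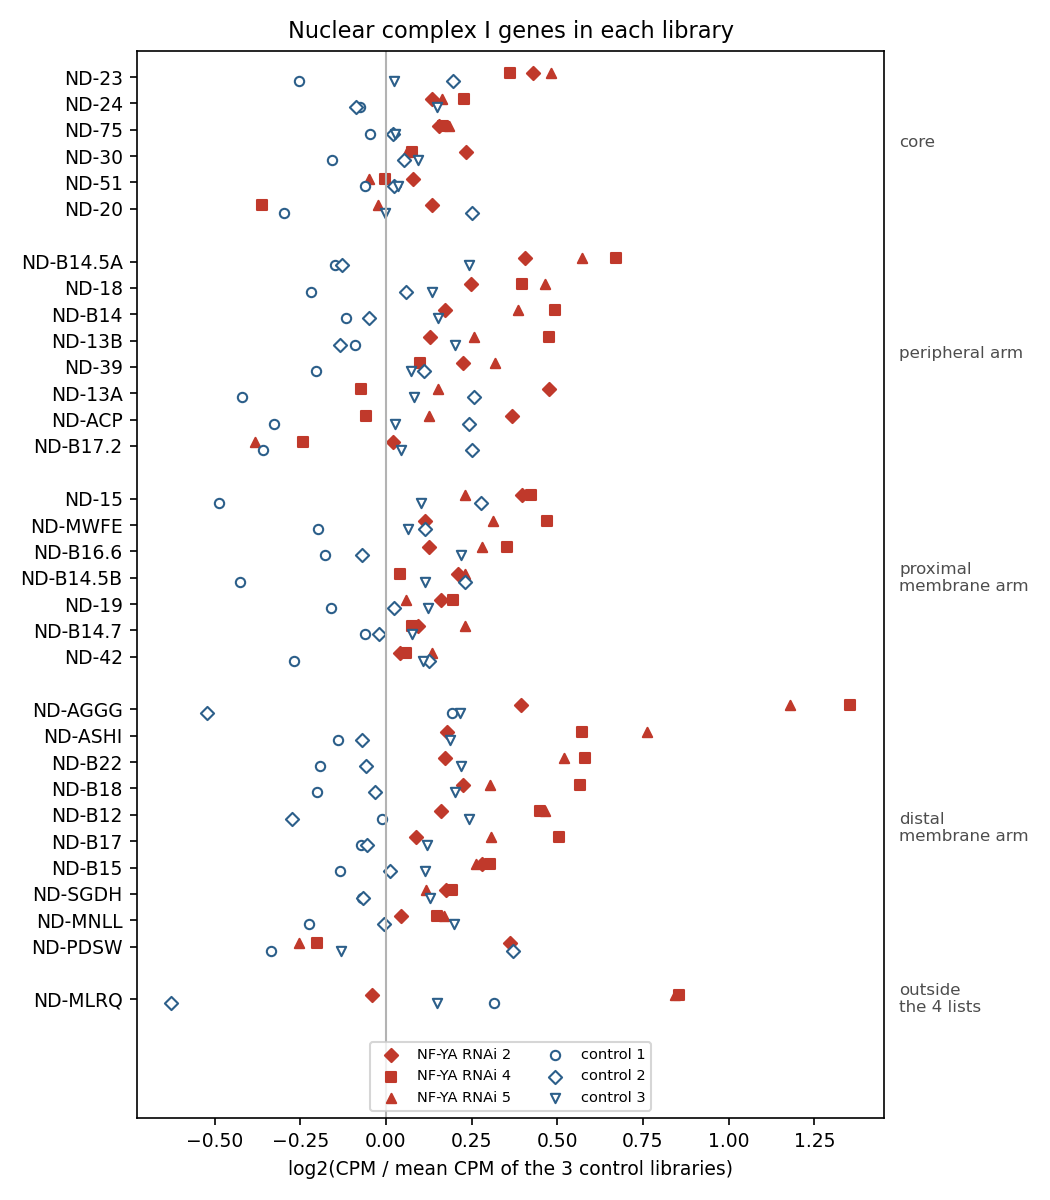
Log2 ratio of the CPM of each of 32 ND- genes to its mean in the 3 control libraries, for each NF-YA RNAi library (filled red) and each control library (open blue). Control library 1 (open circles) lay below the control mean for 30 of them. NF-YA RNAi library 2 and control library 2 (diamonds) departed from the other libraries of their group in the same direction in most genes, not in all.

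Within the groups, NF-YA RNAi library 2 and control library 2 departed from their fellow libraries in the same direction for 27 of the 33 genes. For each gene the log2 ratio of NF-YA RNAi library 2 to the mean of libraries 4 and 5 was set against the log2 ratio of control library 2 to the mean of libraries 1 and 3. Across the 33 genes these ratios had a Pearson's r of 0.885 and a Spearman's rho of 0.804, and r was 0.794 without ND-AGGG and ND-MLRQ. Across the 38 tested genes of complexes II to V r was 0.649, and across the 4869 genes with a mean of 10 CPM or more it was 0.195. These are descriptions across genes that share the same 6 libraries. The ratios had the same sign for 27 genes, positive in both for 13 and negative in both for 14. These are 81.8% of the 33 genes, beside 65.4% of the genes with a mean of 10 CPM or more. The share of genes that were highest of their group in both libraries was 15.2% for the ND- genes and 15.3% for all genes tested. ND-PDSW was highest, at 0.59 in NF-YA RNAi and 0.60 in control, and ND-13A stood at 0.43 in NF-YA RNAi and 0.41 in control. ND-15 stood at 0.066 in NF-YA RNAi and 0.44 in control. ND-B17.2, ND-ACP and ND-20 were also positive, between 0.32 and 0.33 in NF-YA RNAi and between 0.38 and 0.39 in control. At the other end, ND-MLRQ stood at -0.89 in NF-YA RNAi and -0.86 in control, and ND-AGGG at -0.87 and -0.73. Both libraries carry the number 2 in their library name, whereas in the titles control library 2 is replicate 2 and NF-YA RNAi library 2 is replicate 1. Their summed level of the 7 mitochondrially encoded ND genes was the lowest of each group (783, 1318 and 1308 CPM in NF-YA RNAi and 945, 597 and 937 CPM in control). What the 2 libraries have in common was not tested.

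**Figure D4:**
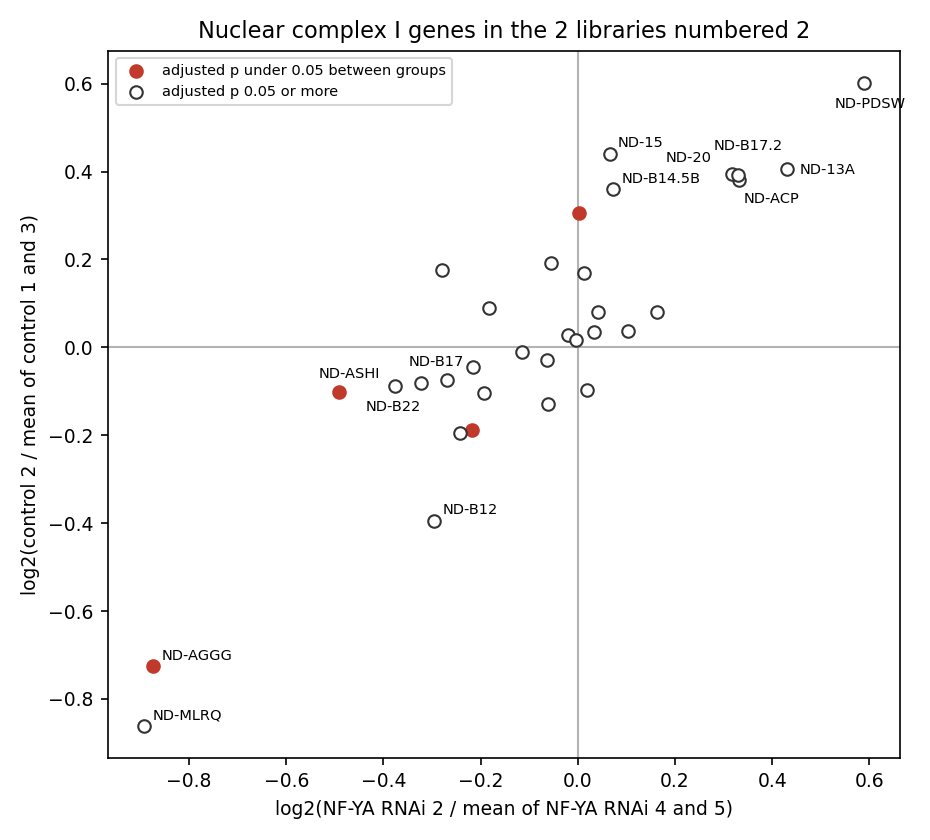
For each of the 33 ND- genes, the log2 ratio of NF-YA RNAi library 2 to the mean of NF-YA RNAi libraries 4 and 5 (x axis) against the log2 ratio of control library 2 to the mean of control libraries 1 and 3 (y axis). Points run from ND-MLRQ and ND-AGGG at the lower left to ND-PDSW at the upper right (r = 0.885), and the 4 genes called between the groups are in red.

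Subunits of complex I that carry other names were also measured. NdufV3, a small subunit of the NADH-binding region in mammals, had 108, 149 and 147 CPM in NF-YA RNAi, against 84.9, 77.0 and 103 CPM in control. It was called upregulated and its groups did not overlap (log2 fold change 0.61 ± 0.15, adjusted p = 0.0285, edgeR). NP15.6 (NDUFB11, a distal subunit) had a log2 fold change of 0.30 (adjusted p = 0.0661, edgeR) and NdufA3 one of 0.22. The 7 mitochondrially encoded ND genes, the proton-pumping core, all had positive log2 fold changes, beside 48.3% of all genes tested, with a median of 0.42. Of these, 0 were called in edgeR, with 1 (14.3%) at an unadjusted p under 0.05 and 1 called upregulated in DESeq2. Beside these, 6.19% of all genes tested were called upregulated in edgeR and 13.4% were higher at an unadjusted p under 0.05. DESeq2 called 9.62% of its genes upregulated.

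Assembly factors help to build the complex and are not part of the finished enzyme. Of 9 such genes, 7 had a positive log2 fold change, with a median of 0.15, and 1 was called. These are 77.8% and 11.1% of the list, beside 48.3% and 6.19% of all genes tested. ECSIT, which in mammals acts in the assembly of the membrane arm and in immune signalling, had 9.40, 8.77 and 12.5 CPM in NF-YA RNAi, against 6.72, 6.18 and 4.57 CPM in control. Every NF-YA RNAi library lay above every control library (log2 fold change 0.81 ± 0.21, adjusted p = 0.0344, edgeR). The call was lost when any single library was left out. The others were not called. 140up (TIMMDC1) stood at 0.63, CG5569 (NDUFAF3) at 0.42, CG11722 (NDUFAF4) at 0.22, CIA30 (NDUFAF1) at 0.15, Egm (ACAD9) at 0.10, sicily (NDUFAF6) at 0.062, l(2)37Bb (FOXRED1) at -0.085 and Nubpl, an iron-sulphur cluster carrier, at -0.54 on the log2 scale.

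Complex II feeds electrons from succinate to ubiquinone alongside complex I, complexes III and IV carry them on to oxygen, and complex V makes ATP. Of the 38 tested genes of complexes II to V (54 by name), 35 had a positive log2 fold change and 10 were called upregulated, 26.3% beside 6.19% of all genes tested. None was called downregulated (0 in edgeR, 0 at an unadjusted p under 0.05, 0 in DESeq2). Their median was 0.31, above the 0.22 of the ND- genes. The smallest adjusted p belonged to Cyt-c-p, the cytochrome c that carries electrons to complex IV. It had 530.5, 664 and 648 CPM in NF-YA RNAi, against 288, 271 and 395 CPM in control, without overlap (log2 fold change 0.95 ± 0.15, adjusted p = 0.00446, edgeR). It was followed by ox, a small subunit of complex III (1.12, adjusted p = 0.0163), and by 2 ATP synthase subunits, ATPsynO (0.42, adjusted p = 0.0196) and blw, the alpha subunit (0.31, adjusted p = 0.0200).

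**Figure D5:**
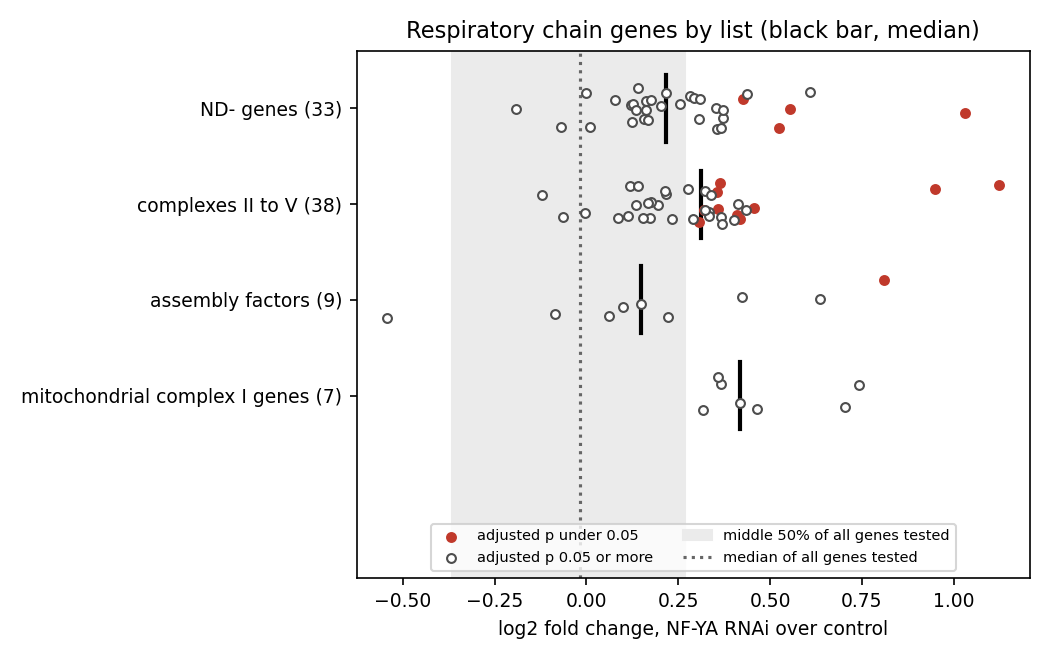
Log2 fold change of NF-YA RNAi over control for the 33 ND- genes, the 38 tested genes of complexes II to V, 9 complex I assembly factors and 7 mitochondrially encoded complex I genes. Red points have an adjusted p under 0.05, black bars are medians (0.22, 0.31, 0.15 and 0.42), and the grey band is the middle 50% of all genes tested.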

How the data were processed

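Messenger RNA of sorted ISCs was sequenced in 6 libraries. Per the file headers and the methods, the authors deposited Salmon's estimated counts for 34989 transcripts of each library, after trimming and alignment with STAR, and Salmon's TPM. Per the labels, the submitters' processing notes instead name Trimmomatic, TopHat2 and HTSeq, which do not write Salmon files. A gene table of 8470 rows was deposited too, with signal values that are gene counts over normalization factors. Its columns of the authors' DESeq2 comparison, deposited as log2 fold changes with p-values, were not used.

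Estimated counts were summed over the transcripts of each gene of BDGP6.54 (Ensembl) and rounded. The 44 transcripts in no gene held 0.21% to 0.35% of the counts. In edgeR 4.0.16 under R 4.3.3, low genes were removed by filterByExpr, libraries were scaled by TMM, and the groups of all 6 libraries were tested by quasi-likelihood, with Benjamini-Hochberg adjustment over 9080 genes. An adjusted p under 0.05 is a call. TPM was used only to compare genes. Alternatives used DESeq2 1.42.0 and limma 3.58.1 (log2(value + 1) of the deposited signal), and each library was left out in turn. Python 3.11.15 and matplotlib 3.10.9 made the tables and plots.

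In simulated counts for 9080 genes with 200 changed, edgeR recovered 0 of 200 at a log2 change of 0.5 and 111 (55.5%) at 1, with 11 false calls. DESeq2 recovered 44 (22%) and 128 (64%), with 16 and 40 false calls. In the data edgeR called more genes than were changed here, 562 up and 728 down. The changed genes were drawn from all genes tested, whose median SE in the data was 0.184, against 0.124 for the ND- genes. The recovered shares therefore do not say how often a change of that size in an ND- gene would be called. No 2 libraries of a group agreed within counting noise, since chi-square over its degrees of freedom was 69.94 or more.

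The ND- genes, the lists and the tests were chosen with earlier results of these data known. Of the ND- genes, 32 are named, and 1 is counted in the totals but not reported here. Per-library values are given for called genes, core subunits, related copies and the highest, lowest and nearest-to-0 fold changes. Those of ND-MLRQ, NdufV3 and ECSIT, and the pattern of the libraries numbered 2, were added after the values were seen. From complexes II to V, the 4 genes with the smallest adjusted p are named. Assembly factors were matched by symbol, description or synonym. Promoters and protein sequences were not analysed here.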

Additional observations from a re-analysis of the deposited data

How the results depend on the processing

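The median log2 fold change of the ND- genes stayed positive under all 14 alternatives, at 0.2246 with DESeq2 size factors and 0.3004 when scaled by library size alone, where the median of all genes was 0.068. It ranged from 0.144 to 0.2753 when 1 library was left out. The number of ND- genes called upregulated was 4 in edgeR, 8 with library size alone, 8 with limma on the deposited gene table and 11 with DESeq2. The share of all genes called upregulated in these settings was 6.19%, 8.63%, 7.41% and 9.62%. The number of ND- genes ranged from 0 to 5 when 1 library was left out, where the share of all genes ranged from 1.99% to 5.41%. It was 0 when NF-YA RNAi library 4 or 5 or control library 1 was the one omitted, and 1 for control library 2. For complexes II to V the number was 10, against 16 with library size alone and 18 with DESeq2, and it ranged from 1 to 14 when 1 library was left out. The assembly factor call (1) became 0 each time a library was left out and stayed at 1 with library size alone and with DESeq2. With the replicate block, which takes the number in the titles as a pair, 1 ND- gene (ND-B14.5A), 3 genes of complexes II to V and 0 assembly factors were called. In that setting 2.98% of all genes tested were called upregulated. The groups share only 2 title numbers, the deviations of same-numbered samples correlated at 0.051 and -0.02, and the library names give other numbers, so the title numbers were not taken as pairs. By library name the groups share only the number 2 (correlation 0.024 over all genes), too few for a block. The count of ND- genes called downregulated was 0 throughout. The cause of these shifts was not tested.

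The sign of 5 small fold changes turned. ND-PDSW became 0.0053 with DESeq2 size factors and with DESeq2, 0.0767 with library size alone, 0.0021 with length offsets, 0.0097 with limma and 0.0617 with the replicate block, and ranged from -0.228 to 0.2264 when 1 library was left out. ND-20 became 0.0126 with library size alone and ranged from -0.1984 to 0.0744 when 1 library was left out. In the same way ND-42 ranged from -0.04 to 0.1451, ND-B14.5B from -0.0113 to 0.2932 and ND-51 from -0.0278 to 0.0521. Among the called genes, the log2 fold change ranged over all 14 alternatives from 0.83 to 1.27 for ND-AGGG (called in 8), 0.48 to 0.69 for ND-B14.5A (10), 0.40 to 0.67 for ND-ASHI (9) and 0.31 to 0.53 for ND-23 (8). The TPM order of the ND- genes was the same when TPM was recomputed from counts and effective lengths. A search of promoters for CCAAT was not run.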

Other observations

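The ND- genes with shorter transcripts tended to have larger log2 fold changes. Across the 33 genes, the log2 fold change and the length of the transcript with most counts had a Spearman's rho of -0.46 (Pearson's r = -0.423 with log2 length), while rho with the mean TPM was 0.107. These are descriptions over genes that share the same libraries. They include the short genes ND-AGGG (445 bases) and ND-MLRQ (379 bases), which had the highest fold changes. The relation over all genes tested is not given here, so it cannot be called particular to the ND- genes. Of the 33 genes, 9 lie on the X chromosome, and their median log2 fold change was 0.26, against 0.21 for the 24 elsewhere and -0.049 for the 1559 tested genes on X. Transcript estimates within a gene were less even than their sums. In ND-B17.2, the 621-base transcript FBtr0077745 had 1822, 1238 and 21.2 estimated counts in NF-YA RNAi and 974, 1600.0 and 1524 in control. In ND-20, FBtr0074152 had 1284, 1828 and 21.4 in NF-YA RNAi and 809, 891 and 787 in control. NF-YA RNAi library 5 was the lowest for both, while the main transcripts had 3422 (FBtr0273393) and 5196 (FBtr0074151) counts in that library.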
